A study of Mus musculus with 6 samples.

Results

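The facilitative glucose transporters are the SLC2A (GLUT) carriers, and 9 of their genes were followed here in OS3 glial cells with and without a mutant histone: *Slc2a1*, *Slc2a3*, *Slc2a4*, *Slc2a6*, *Slc2a8*, *Slc2a9*, *Slc2a10*, *Slc2a12* and *Slc2a13*. Their probes were found through the RefSeq accession that the array lists for each probe, and all 9 genes, of 22907 genes named on the array, had a probe, with 13 probes among the 56605 on the array that are not controls. Of these 13, 9 probes of 7 genes were well above background on every array of at least 1 group and were tested, as were 34060 probes in all.

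OS3 is a line of glial cells from male newborn C3H mice (C3H/HeN in the study's methods), immortalized with SV40, and both groups carry that immortalization. WT cells were OS3 cells with the empty vector (3 samples), and IG27 cells were OS3 cells transfected with a plasmid for H3.3 with the K27M change (OS3-H3F3A_K27M, 3 samples), from which clones were taken by drug selection. Which clone was used, and whether the samples of a group came from more than 1 clone, is not given in the sources used here, so p-values measure the spread between samples of 1 line each and the effect of the clone cannot be told apart from that of the plasmid. All samples were grown for 2 days in MEM-α with GlutaMAX, 10% fetal bovine serum, 5 µg/ml of insulin and 0.2% added D-glucose at 37 °C and 5% CO2. Each sample was read on 1 single-color Agilent array, and all 6 arrays were on 1 slide. The comparison asks how the transporter transcripts of IG27 cells differ from those of WT cells, a step in the study's question of how these cells take up and use glucose.

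GLUT proteins let sugars pass across membranes down their concentration gradient, without coupling to sodium or ATP. GLUT1 is the basal carrier of most cells and of the blood-brain barrier, GLUT3 is a high-affinity carrier best known from neurons, and GLUT4 is held in vesicles of muscle and fat cells until insulin signaling sends it to the surface. The remaining members are less well known: GLUT6, GLUT8, GLUT10 and GLUT12 make up most of class III, GLUT9 carries urate, and the *Slc2a13* product is a proton-coupled myo-inositol carrier.

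Across the members the change in IG27 cells ran in both directions. *Slc2a1*, *Slc2a4* and *Slc2a6* were higher in IG27 cells, by 2.91-fold to 5.33-fold, *Slc2a3* and *Slc2a13* were lower, by 8.45-fold and 1.89-fold at their brighter or only probes, and *Slc2a8* and *Slc2a9* did not pass the test. *Slc2a10*, *Slc2a12* and 1 probe of *Slc2a9* were not well above background in either group. By probe, 4 of 9 were called higher and 3 of 9 lower (limma, Benjamini-Hochberg adjusted over all probes tested, threshold 0.05). IG27 and WT cells differed widely, so these counts stand against a large background: 30.8% of all probes tested were called higher, 33.4% lower and 64.2% either way. The median log2 fold change of the 9 probes was 0.28, beside 0.00 for all probes tested. Their median absolute log2 fold change was 1.56, beside 0.44 for all probes tested. The OS3 label was checked against glial markers, of which 13 of 15 were well above background in WT cells (all but *Slc1a3* and *Cspg4*) and 14 of 15 in IG27 cells (all but *Aqp4*). Between 58.8% and 61.2% of probes were well above background on the 5 arrays that carry such flags, and no member probe had an outlier flag.

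**Figure D1:**
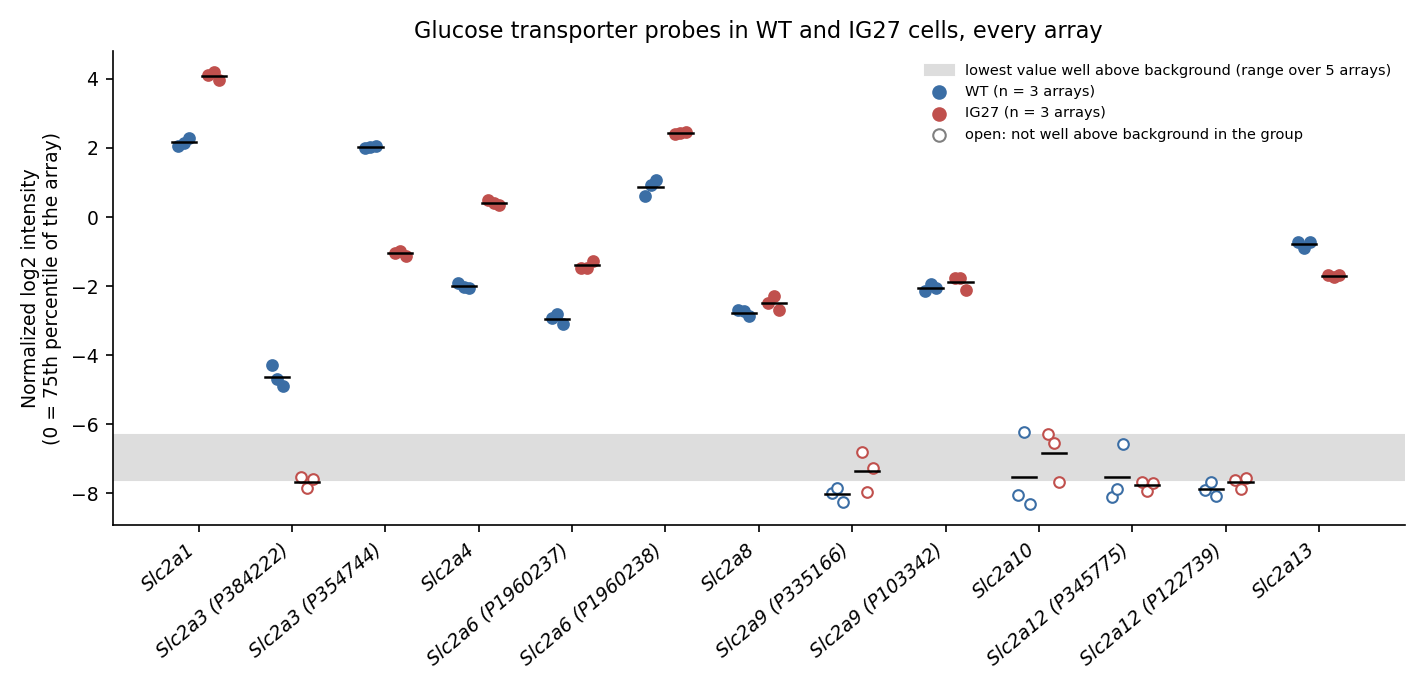
Normalized log2 intensity (vertical axis, where 0 is the 75th percentile of each array) of all 13 probes of the 9 transporter genes on each of the 3 WT and 3 IG27 arrays, with a line at each group's mean. The IG27 arrays sit apart from the WT arrays at *Slc2a1*, *Slc2a3*, *Slc2a4*, *Slc2a6* and *Slc2a13*, while open points mark probes that were not well above background in that group.

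All levels below are log2 intensities minus the 75th percentile of the same array, so they compare arrays at 1 probe and not 1 probe with another. *Slc2a1*, the gene of the basal carrier GLUT1, lies on chromosome 4 and has 1 probe (A_51_P464738). Its level in WT replicates 1 to 3 was 2.07, 2.15 and 2.29. Its level in IG27 replicates 1 to 3 was 4.10, 4.19 and 3.98. Every IG27 array was above every WT array, and the ranges of the groups lay far apart against the spread within either. The means were 2.17 ± 0.11 in WT cells and 4.09 ± 0.11 in IG27 cells (SD, n = 3 each), a log2 fold change of 1.92 (SE 0.09, 95% interval 1.71 to 2.13) or 3.79-fold higher in IG27 cells (limma, adjusted p = 8.42e-06). Of all probes tested, 5.38% had a larger rise. In bulk RNA, a change in the RNA per cell cannot be told apart from a change in the make-up of the cells. GLUT1 is also abundant in brain endothelium, and among the 5 endothelial markers *Cdh5*, *Tek* and *Cldn5* were not well above background in either group and *Pecam1* was lower in IG27 cells (log2 fold change -0.27, limma, adjusted p = 0.0328). *Kdr*, the receptor for vascular endothelial growth factor, was at least 268-fold higher in IG27 cells, and with it the summed linear level of the list went from between 0.172 and 0.194 on WT arrays to between 2.6 and 2.67 on IG27 arrays (in units of each array's 75th percentile). The part of these markers in the *Slc2a1* result was not tested beyond these values.

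*Slc2a4*, the gene of the insulin-responsive carrier GLUT4, has 1 probe (A_51_P217498) and lies on chromosome 11. Its level was -1.91, -2.03 and -2.05 in WT replicates 1 to 3. In IG27 replicates 1 to 3 it was 0.49, 0.40 and 0.36. The probe was thus well below the 75th percentile of the array in WT cells and just above it in IG27 cells, with no overlap. The log2 fold change was 2.41 (SE 0.07, 95% interval 2.25 to 2.58), or 5.33-fold higher in IG27 cells, from a mean of -2.00 ± 0.08 to 0.42 ± 0.07 (SD, n = 3 each; limma, adjusted p = 1.37e-06). It was the largest rise among the 9 tested probes, and 4.21% of all probes tested rose more. The medium of both groups held insulin, and the arrays measured transcripts, not where the protein sits in the cell.

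*Slc2a3*, the gene of the high-affinity carrier GLUT3, moved the opposite way. It lies on chromosome 6 and has 2 probes. At the brighter one (A_52_P354744) the level was 2.00, 2.02 and 2.06 in WT replicates 1 to 3, and -1.04, -0.97 and -1.13 in IG27 replicates 1 to 3. The samples of each group lay within a narrow band, and the bands did not overlap. The mean fell from 2.03 ± 0.03 to -1.05 ± 0.08 (SD, n = 3 each), a log2 fold change of -3.08 (SE 0.06, 95% interval -3.23 to -2.93) or 8.45-fold lower in IG27 cells (limma, adjusted p = 4.85e-07). Of all probes tested, 4.03% had a larger absolute log2 fold change.

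The dimmer *Slc2a3* probe (A_51_P384222) was at -4.29, -4.70 and -4.88 in WT replicates 1 to 3 and at -7.53, -7.85 and -7.59 in IG27 replicates 1 to 3. It was well above background on all 3 WT arrays and on 0 of 2 flagged IG27 arrays, so only a bound can be given there. Against the lowest signal well above background on those 2 arrays, it was at least 5.68-fold lower in IG27 cells in the processed signal (limma, adjusted p = 2.09e-05). With normexp background correction its log2 fold change was -0.67 in place of -3.04, still lower (limma, adjusted p = 0.000375). That change is smaller than the bound, which thus does not hold across processing. Both probes of the gene were thus lower, and the size rests on the brighter one.

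*Slc2a6*, the gene of GLUT6, a class III carrier found mainly on intracellular membranes, has 2 probes and lies on chromosome 2. The first (A_55_P1960238) was at 0.61, 0.92 and 1.07 in WT replicates 1 to 3 and at 2.40, 2.44 and 2.45 in IG27 replicates 1 to 3. WT replicate 1 was the lowest, and all WT arrays were below all IG27 arrays. The log2 fold change was 1.56 (SE 0.12, 95% interval 1.27 to 1.86), or 2.96-fold higher in IG27 cells (limma, adjusted p = 7.74e-05), from means of 0.87 ± 0.23 and 2.43 ± 0.03 (SD, n = 3 each). The other probe (A_55_P1960237) was at -2.92, -2.81 and -3.09 in WT cells and at -1.46, -1.46 and -1.28 in IG27 cells. It gave a log2 fold change of 1.54 (SE 0.09, 95% interval 1.31 to 1.77), or 2.91-fold higher (limma, adjusted p = 2.94e-05). The probes of this gene gave nearly the same change at different brightness.

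*Slc2a13*, the gene of the proton-coupled myo-inositol carrier, has 1 probe (A_55_P2041011) and lies on chromosome 15. It was at -0.72, -0.90 and -0.73 in WT replicates 1 to 3 and at -1.69, -1.73 and -1.67 in IG27 replicates 1 to 3. Every IG27 array was below every WT array. The mean fell from -0.78 ± 0.10 to -1.70 ± 0.03 (SD, n = 3 each), a log2 fold change of -0.92 (SE 0.07, 95% interval -1.08 to -0.75) or 1.89-fold lower (limma, adjusted p = 7e-05). Its change was smaller than that of 24.0% of all probes tested, in absolute log2 fold change.

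The remaining members gave no call. *Slc2a8*, the gene of GLUT8, an intracellular class III carrier, has 1 probe (A_51_P358171) on chromosome 2, at -2.70, -2.73 and -2.86 in WT cells and -2.48, -2.29 and -2.69 in IG27 cells. The groups did not overlap, which held for 71.1% of all probes tested, but the lowest IG27 array lay next to the highest WT array. The log2 fold change was 0.28 (SE 0.11, 95% interval 0.00 to 0.55; limma, adjusted p = 0.0733), and without IG27 replicate 3 it was 0.38 and passed (limma, adjusted p = 0.0192). *Slc2a9*, the gene of the urate carrier GLUT9, lies on chromosome 5. Its brighter probe (A_66_P103342) was at -2.13, -1.94 and -2.05 in WT cells and -1.75, -1.77 and -2.12 in IG27 cells. Here the groups overlapped through IG27 replicate 3, and the log2 fold change was 0.16 (SE 0.12, 95% interval -0.13 to 0.45; limma, adjusted p = 0.289). Without IG27 replicate 3 it was 0.28 and passed (limma, adjusted p = 0.0335). The intervals leave room for a rise of up to 0.55 at *Slc2a8* and 0.45 at *Slc2a9*.

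The last 4 probes were not well above background on any flagged array. *Slc2a10* on chromosome 2, whose product GLUT10 is the carrier altered in arterial tortuosity syndrome, was at -8.04, -6.22 and -8.30 in WT cells and -6.28, -6.54 and -7.66 in IG27 cells. *Slc2a12* on chromosome 10, the gene of GLUT12, has 2 such probes. The first (A_51_P345775) was at -8.11, -7.86 and -6.57 in WT cells and -7.66, -7.92 and -7.69 in IG27 cells. The other *Slc2a12* probe (A_66_P122739) ran from -8.08 to -7.67 in WT cells and from -7.87 to -7.56 in IG27 cells. The dimmer *Slc2a9* probe (A_52_P335166) ran from -8.25 to -7.85 in WT cells and from -7.95 to -6.80 in IG27 cells. These probes are dim by the flag of each spot, and no fold is given. The lowest signal well above background of any probe lay between -7.62 and -6.32 on the 5 flagged arrays. Some values of these probes were higher than that of their own array, as for *Slc2a10* in WT replicate 2 (-6.22 against -6.34).

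**Figure D2:**
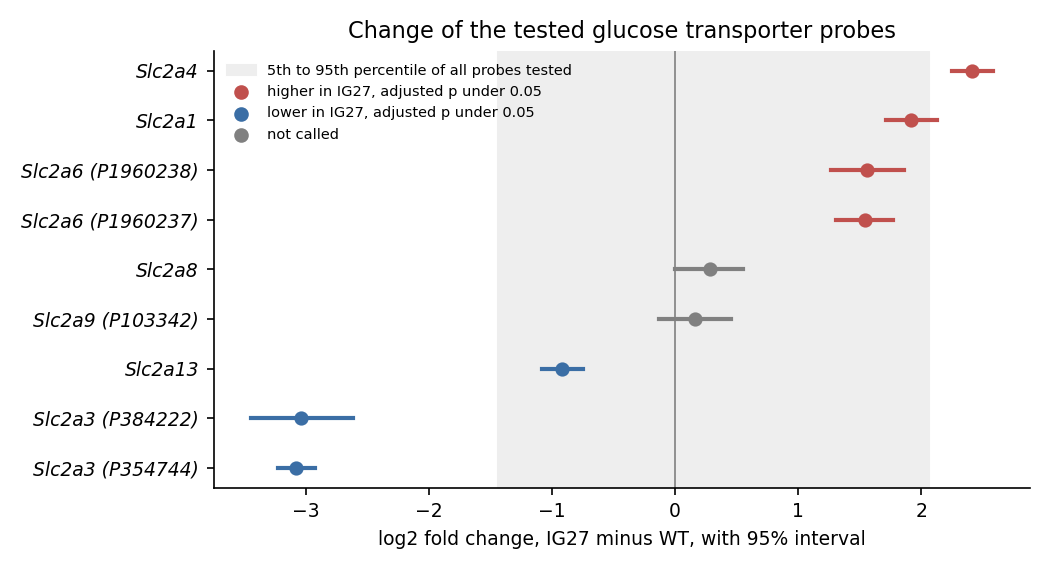
Log2 fold change (IG27 minus WT, horizontal axis) of the 9 tested transporter probes with its 95% interval, and in gray the 5th to 95th percentile of all 34060 probes tested (-1.44 to 2.06). *Slc2a4* lies to the right of that range, both *Slc2a3* probes lie to its left, and the intervals of *Slc2a8* and *Slc2a9* reach or span 0.

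Of the mouse GLUT genes outside these 9, *Slc2a5*, the fructose carrier GLUT5, was at -6.74, -7.72 and -6.51 in WT replicates 1 to 3 and at -3.61, -3.78 and -4.02 in IG27 replicates 1 to 3. It was not well above background on any WT array, and was at least 6.02-fold higher in IG27 cells in the processed signal (limma, adjusted p = 0.00025). *Slc2a2*, the low-affinity carrier of liver and beta cells, was well above background on 1 of 3 WT arrays and 1 of 2 flagged IG27 arrays and was not tested. *Slc2a7* was at background on all flagged arrays.

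The promoters of the called members are shown because the study examined a histone mark near the *Slc2a1* start. RefSeq windows (GRCm38.p6, the 250 bases before each start, 5′ to 3′ on the strand of the gene) were matched for 7 of the 9 members, and *Slc2a3* and *Slc2a4* had no entry. Capitals mark ACGTG, a form of the core that HIF factors bind, CACGTG, the E-box of ChREBP and MYC relatives, and GGGCGG, the GC box of SP1. Each was searched on both strands, so that CCGCCC is a GC box on the other strand. The other form of the HIF core, GCGTG, was not marked and was not counted over all windows.
*Slc2a1*, chr4:119108495-119108744, plus strand: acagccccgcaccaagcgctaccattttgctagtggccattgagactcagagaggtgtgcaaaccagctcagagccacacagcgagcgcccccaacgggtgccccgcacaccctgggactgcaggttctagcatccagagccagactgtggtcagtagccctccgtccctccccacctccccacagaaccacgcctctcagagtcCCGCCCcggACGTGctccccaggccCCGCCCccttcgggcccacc
*Slc2a6*, chr2:27027999-27028248, minus strand: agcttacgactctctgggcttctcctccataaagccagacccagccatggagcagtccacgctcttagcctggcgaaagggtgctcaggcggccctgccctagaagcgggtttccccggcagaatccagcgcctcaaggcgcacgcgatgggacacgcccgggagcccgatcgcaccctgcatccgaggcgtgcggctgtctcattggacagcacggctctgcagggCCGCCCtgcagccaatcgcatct
*Slc2a13*, chr15:91573262-91573511, minus strand: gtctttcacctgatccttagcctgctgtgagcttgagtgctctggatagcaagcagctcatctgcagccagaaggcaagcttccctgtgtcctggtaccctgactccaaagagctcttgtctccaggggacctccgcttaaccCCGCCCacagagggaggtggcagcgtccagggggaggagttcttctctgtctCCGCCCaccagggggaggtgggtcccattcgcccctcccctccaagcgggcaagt

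The *Slc2a1* window held 1 ACGTG match, 36 bases before the start, and GC boxes 45 and 20 bases before it. The *Slc2a6* window held 1 GC box, 23 bases before the start, and the *Slc2a13* window held 2, the nearer one 55 bases before it. Over all 32851 windows of this length, ACGTG in either direction was found in 16.6%, CACGTG (which contains it) in 6.02% and the GC box in 32.7%. None of the 7 windows held CACGTG, and *Slc2a1* had the only ACGTG match. GCGTG was not counted, but its letters stand in the *Slc2a6* sequence shown. CACGC, the same letters on the other strand, stands in those of *Slc2a1* and *Slc2a6*. The ACGTG matches are thus not a full count of HIF cores in any window. The GC content was 66.4% in *Slc2a1*, 65.2% in *Slc2a6* and 61.2% in *Slc2a13*, beside a median of 52.4% over all windows. Among the members without a call, the *Slc2a10* window also held 2 GC boxes, 34 and 9 bases before the start, at 58.0% GC. The windows of *Slc2a8*, *Slc2a9* and *Slc2a12* held none, at 52.8%, 48.8% and 48.8% GC. These matches are descriptions of letters, and no binding was measured on the arrays.

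Genes that act on the carriers, and other sugar carriers, were followed in 6 lists, whose calls stand beside 64.2% of all probes tested called either way. The list on sorting and delivery of GLUT4 vesicles held 41 tested probes of 25 genes, of which 11 were called higher, 22 lower and 8 not called (beside 30.8% and 33.4% of all probes tested higher and lower), with a median log2 fold change of -0.29. *Tbc1d4* (AS160), the Rab GTPase-activating protein that holds GLUT4 vesicles back until it is phosphorylated by AKT, was lower at all 3 of its probes. Its brightest probe went from 2.75, 2.55 and 2.59 in WT cells to 0.88, 0.66 and 0.91 in IG27 cells (log2 fold change -1.81, limma, adjusted p = 1.55e-05), and the others gave -1.89 and -1.61. *Gga2*, a clathrin adaptor of the trans-Golgi network, rose by 1.45 and 1.26 at its 2 probes on the log2 scale (limma, adjusted p = 4.48e-06 and 7.25e-06). The related *Gga1* rose by 1.38 (limma, adjusted p = 0.00463), with WT replicate 1 at -0.97, apart from -0.02 and 0.00 in the other WT arrays.

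In the list on endosomal recycling and arrestin-driven uptake, 8 of 26 probes were called higher and 13 lower (beside 30.8% and 33.4% of all probes tested), with a median log2 fold change of -0.20. *Txnip* and *Arrdc4*, arrestin-domain proteins that draw GLUT1 from the surface and are themselves induced by glucose, were both higher. *Txnip* was at 2.84, 2.86 and 2.94 in WT cells and 3.76, 3.84 and 3.79 in IG27 cells at its brightest probe (log2 fold change 0.92, limma, adjusted p = 3.39e-05), and its other probe gave 0.98. *Arrdc4* rose by 1.08 and 1.19 on the log2 scale at its 2 probes (limma, adjusted p = 0.000252 and 0.000258). *Rab4a*, a GTPase of rapid recycling, was lower at both probes (-1.29 and -0.87), as was *Gipc1*, which binds the tail of GLUT1 (-0.96; limma, adjusted p = 5.77e-05). The members of this list thus moved in both directions.

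The insulin and energy signaling list had 10 of 38 probes called higher and 20 lower (beside 30.8% and 33.4% of all probes tested), with a median log2 fold change of -0.33. *Igf1r*, the receptor for insulin-like growth factor, rose by 3.21 and 3.69 on the log2 scale at its 2 probes. *Irs2*, an adaptor of the insulin receptor, went from 3.21, 3.17 and 3.1 in WT cells to 0.90, 0.79 and 0.66 in IG27 cells (log2 fold change -2.38, limma, adjusted p = 2.55e-06).

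The list of transcription factors known to act on GLUT genes and of their regulators held 27 tested probes. Of these, 12 were called higher and 6 lower (beside 30.8% and 33.4% of all probes tested), with a median of 0.07. That is 66.7% called either way, beside 64.2% over all probes tested. *Hif1a*, the oxygen-sensitive subunit of HIF1, whose targets include *Slc2a1* and *Slc2a3*, was at 2.18, 2.17 and 2.20 in WT cells and 3.11, 3.05 and 3.04 in IG27 cells (log2 fold change 0.88, limma, adjusted p = 2.5e-05). *Epas1*, which encodes HIF2A, rose by 2.56 (limma, adjusted p = 2.17e-06), and *Egln3*, a prolyl hydroxylase that marks HIF for decay and is itself a HIF target, rose by 3.50 (limma, adjusted p = 4.24e-07). *Slc2a1* was higher and *Slc2a3* lower in the same cells, and the part of HIF in either change was not tested. *Mef2c*, of the MEF2 family that acts on *Slc2a4* in muscle, was higher at both of its probes (3.08 and 3.84).

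Of 15 tested probes of enzymes that trap or release glucose, 6 were called higher and 7 lower (beside 30.8% and 33.4% of all probes tested), with a median of 0.26. *Hk1*, the hexokinase of most tissues, went from 3.66, 3.62 and 3.69 in WT cells to 5.04, 5.21 and 5.05 in IG27 cells (log2 fold change 1.45, limma, adjusted p = 1.05e-05) at its 1 tested probe. *Hk2*, the inducible hexokinase, rose by 0.65 (limma, adjusted p = 0.00051). *Hkdc1*, a hexokinase-like protein, was well above background on 1 of 3 WT arrays and was at least 16.1-fold higher in IG27 cells (limma, adjusted p = 9.58e-07). *Adpgk*, an ADP-dependent glucokinase, was lower (-1.31; limma, adjusted p = 3.86e-05).

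Among carriers of sugars outside the GLUT family, 5 of 13 tested probes were called higher and 5 lower (beside 30.8% and 33.4% of all probes tested), with a median of 0.02. *Slc45a1*, a proton-coupled glucose carrier of brain, rose by 1.48 on the log2 scale (limma, adjusted p = 3.36e-05). *Slc45a4*, of the same family, rose by 0.72 and 0.74 at its 2 probes. *Slc37a1*, a sugar phosphate carrier of the endoplasmic reticulum, was higher by 0.75 (limma, adjusted p = 0.0448), with WT replicate 1 the lowest at -3.90. The sodium-coupled carriers *Slc5a1*, *Slc5a2*, *Slc5a4a*, *Slc5a4b*, *Slc5a9* and *Slc5a11* had no tested probe.

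**Figure D3:**
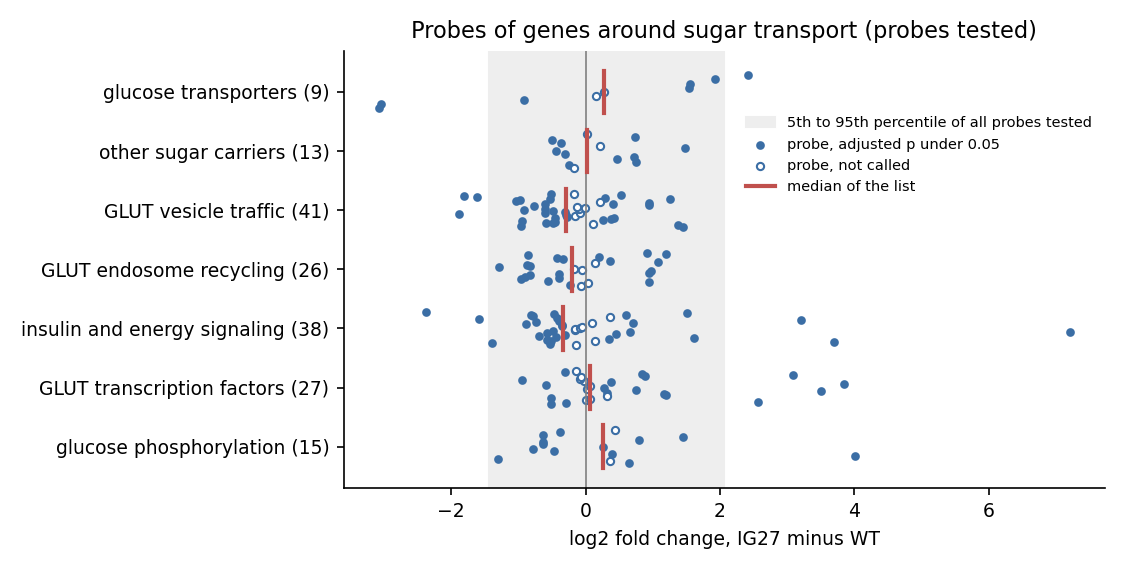
Log2 fold change (IG27 minus WT, horizontal axis) of every tested probe of the transporters and of the 6 lists, with a red line at each list's median and in gray the 5th to 95th percentile of all probes tested. The list medians lie between -0.33 and 0.28, and probes lie on both sides of 0 in every list.

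Several measures of the samples moved with the groups. The median processed signal, before scaling, was 55.4 to 62.9 on WT arrays and 67.1 to 77.6 on IG27 arrays, and its part in the results was not tested. The slide has 2 rows of arrays. One row held WT replicates 1 and 3, while WT replicate 2 shared the other with the 3 IG27 arrays. The members were therefore also compared inside the shared row (1 WT against 3 IG27 arrays), which is what a fit that blocks on the row amounts to. The single WT array is then assumed to vary like the others, since the spread comes from the pair of WT arrays in the other row and from the IG27 arrays. There *Slc2a1* gave 1.94, *Slc2a4* 2.45, *Slc2a3* -3.07 and -2.96, *Slc2a6* 1.51 and 1.41 and *Slc2a13* -0.80 as log2 fold changes, all called in the same direction (limma, highest adjusted p = 0.00211), and *Slc2a8* (0.24) and *Slc2a9* (0.05) were not called. Probes also shifted by chromosome. The median log2 fold change of the probes tested was 0.37 on chromosome 4, where *Slc2a1* lies, and 0.33 on chromosome 15, where *Slc2a13* lies. It was -0.34 on chromosome 2 (*Slc2a6*, *Slc2a8* and *Slc2a10*), -0.21 on chromosome 6 (*Slc2a3*), -0.11 on chromosome 11 (*Slc2a4*) and 0.06 on chromosome 5 (*Slc2a9*). *Slc2a1* and *Slc2a3* thus moved in the direction of their chromosome's median and *Slc2a6*, *Slc2a4* and *Slc2a13* against it, and the part of these shifts in the results was not tested.

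Markers of other cell types moved too. Within each list they moved in both directions, so that a summed level follows its brightest markers. Of the 5 neuronal markers, *Rbfox3* and *Syt1* were not well above background on any flagged array, *Tubb3* was lower (log2 fold change -2.63, limma, adjusted p = 1.01e-06), *Map2* was at least 239-fold higher (limma, adjusted p = 1.18e-06; well above background on 1 of 3 WT arrays) and *Snap25* was not called (-0.11). Their summed linear level was 17.5 to 19.9 on WT arrays and 9.97 to 11.0 on IG27 arrays. Of the 5 microglial markers, *Cx3cr1* was not well above background on any flagged array. *Csf1r* (-1.57 at its brightest probe, while its other tested probe was not called) and *Tmem119* (-0.76) were lower, and *P2ry12* (0.49) and *Aif1* (at least 3.12-fold) were higher, with a summed level of 4.93 to 5.3 on WT arrays and 2.62 to 2.93 on IG27 arrays. Of the 5 fibroblast markers, *Lum* was not well above background on any flagged array and *Col1a2* was so on 2 of 3 WT and 1 of 2 IG27 arrays. *Col1a1* (-0.92) and *Pdgfrb* (-1.16) were lower and *Dcn* was at least 6.45-fold higher, with a summed level of 126 to 129 on WT arrays and 64.3 to 69.6 on IG27 arrays. Their part in the results was not tested. The probes of *H3f3a*, whose K27M form is on the plasmid of IG27 cells, gave log2 fold changes of 0.17 (not called), -0.26 (called lower, limma, adjusted p = 0.0314) and -0.20 (not called). Whether these probes detect RNA from the plasmid is not known, so they check no label.

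The genes whose 6 values, centered on the WT mean, lay nearest to those of *Slc2a1* among 14881 others were *Maff*, a small MAF factor, *Mfsd6* and *Smtnl2*, at Euclidean distances of 0.19, 0.20 and 0.20 log2 units. Their log2 fold changes were 1.89, 1.84 and 1.90. With 2 groups, such nearness is set mostly by the size of the fold change.

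**Figure D4:**
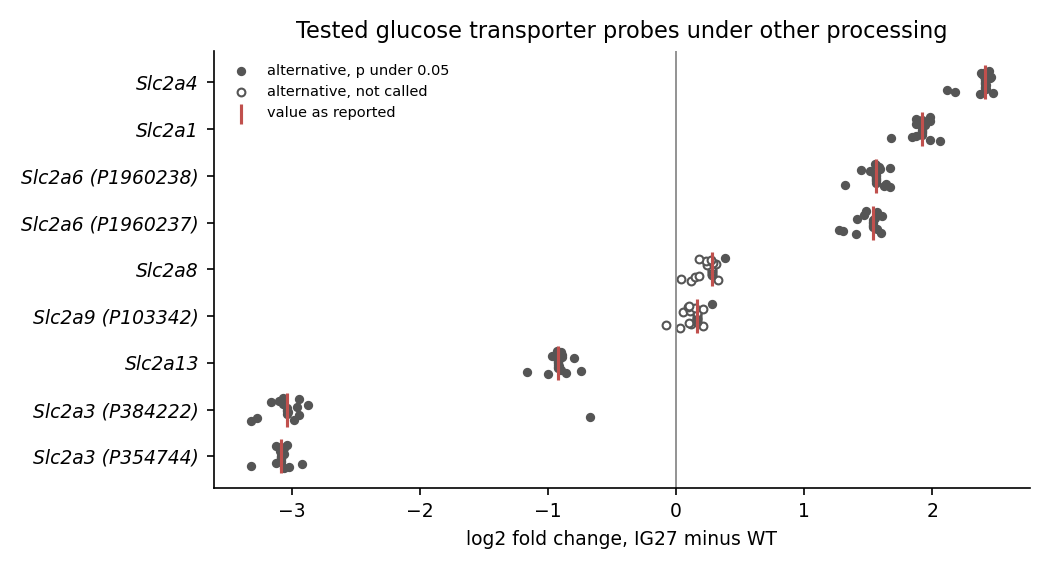
Log2 fold change (IG27 minus WT, horizontal axis) of the 9 tested transporter probes under each alternative processing that gave a value (points) and as reported (red line), where open points did not pass the test. The 7 called probes stay on their side of 0, the dimmer *Slc2a3* probe moves from -3.04 to -0.67 under normexp correction, and *Slc2a9* spans 0.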

How the data were processed

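RNA of 3 WT and 3 IG27 samples was labeled with Cy3 and hybridized to SurePrint G3 Mouse GE arrays. Per the labels RNA was extracted with RNeasy, whereas the study's methods name a Maxwell kit. The authors scanned the slide and deposited the processed signal intensity of Feature Extraction (version 9.1 in the submitters' processing notes, 10.7.3.1 in the file headers) on a linear scale, per spot and in a value table. The scanner output of IG27 replicate 2 used here held 285 of 62976 spots, so its values came from the table, and flags were read on 5 arrays. The table equaled the scanner output at all 56305 single-spot probes of each complete array (relative tolerance 1e-04), with the columns of WT replicates 2 and 3 exchanged; the scanner labels were used.

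Here log2 of the intensity minus each array's 75th percentile was computed, spots with an outlier flag (107 to 210 per array) were left out, and a probe entered the test if it was well above background on all flagged arrays of either group. The test was limma's (version 3.58.1 under R 4.3.3), with lmFit and eBayes, two-sided and unblocked, and p-values were adjusted by Benjamini-Hochberg over 34060 probes. With 3 against 3 arrays an exact permutation test cannot go below p = 0.1, so none was run. The median intensity was 55.4 to 62.9 on WT arrays and 67.1 to 77.6 on IG27 arrays, over a local background of 29.0 to 34.0, which limits dim probes. Where a group was not above background, the fold is a bound. It sets the brighter group's mean against a mean over the flagged arrays of the dim group. Each of those arrays enters with the higher of its lowest signal well above background and the probe's own signal. Such a bound holds for the processed signal used here and is not a detection limit of the probe. At the dimmer *Slc2a3* probe it did not hold with normexp correction, and the other bounds were not set against normexp values. Probes were named through RefSeq (GRCm38.p6), with 29334 of 29638 NM, 2407 of 2477 NR, 463 of 1222 XM and 785 of 2549 XR accessions matched. Members, lists and alternatives were chosen with earlier results of these data known. Named beside the members were the up to 3 called genes per list with the largest change at their brightest probe and no overlap of groups, and *Txnip*, *Arrdc4*, *Hk1*, *Hk2* and *Hif1a* (1 gene that this rule names is not reported here); *Kdr*, *Pecam1*, the other cell type markers given with values and the *H3f3a* probes were named after their values were seen. The steps were tested on simulated data.

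The alternatives were quantile normalization, no scaling, median centering, normexp with offset 50, complete arrays only, no filter or a stricter one on dim probes, outlier spots kept, eBayes with trend, unadjusted p, 1 value per gene, replicate number or slide row as a block, and each array left out. Replicate numbers did not pair the samples: deviations of same-numbered samples from their group means correlated at 0.008, 0.02 and 0.064.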

Additional observations from a re-analysis of the deposited data

How the results depend on the processing

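The 7 called transporter probes kept their direction and stayed called under every alternative that gave a value, 17 to 20 for each probe. Their log2 fold changes ran from 1.68 to 2.06 at *Slc2a1*, 2.11 to 2.47 at *Slc2a4*, -3.32 to -2.92 and -3.32 to -0.67 at *Slc2a3*, 1.32 to 1.67 and 1.27 to 1.61 at *Slc2a6* and -1.16 to -0.74 at *Slc2a13*. *Slc2a8* (0.28) passed at an unadjusted p of 0.0496 (limma), and over its alternatives ran from 0.04 to 0.38. *Slc2a9* turned to -0.08 with median centering, not called. That centering put the median of all probes at -0.24 and 30.4% of calls higher, beside 0.00 and 48.0% as reported. Calls over all probes were 21865, between 17457 with the slide row as a block and 23061 without adjustment of p. With 1 value per gene, they were 10499 for the brightest probe and 10632 for the mean, and calls in the 6 lists together with *Slc2a5* were 83 and 83 in place of 126, as fewer values were tested. Leaving out 1 array gave 20162 to 20706 calls. The replicate block changed no other member call than *Slc2a8* (limma, adjusted p = 0.0463), with 21190 calls in all. Intensities near background limit *Slc2a10*, *Slc2a12* and the dimmer *Slc2a3* and *Slc2a9* probes.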
